A study of Danio rerio with 8 samples.

Results

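The genes described are 10 genes of iron storage and transport in zebrafish (Danio rerio): the ferritin heavy chain paralogs fth1a and fth1b, the plasma carrier transferrin (tfa), the transferrin receptors tfr1a and tfr1b, the iron reductase steap3, the divalent metal transporter slc11a2, the iron exporter ferroportin (slc40a1), the plasma ferroxidase ceruloplasmin (cp) and the iron regulatory protein gene ireb2. They were chosen by symbol, and all 10 were found among the 25725 genes listed for each library. RNA was sequenced from 8 samples of larvae at 5 days postfertilization, 4 kept in the solvent DMSO (Ctrl) and 4 exposed to TCDD, a dioxin that activates the aryl hydrocarbon receptor, from 2 hours postfertilization. The tissue is given as heart for all 8. The labels give no dose, strain, number of larvae per sample or clutch, and p values therefore measure only the spread among these 8 samples, which may be technical. The study's title names lipid peroxidation, a process that free iron promotes.

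Vertebrate cells take up iron mainly as ferric iron bound to transferrin, which enters through transferrin receptor 1 and is reduced in the endosome, by Steap3 in mouse erythroid cells, before Slc11a2 moves it into the cytosol. Ferritin heavy chains oxidise ferrous iron and hold it in a mineral core, while ferroportin exports it and ceruloplasmin oxidises it in plasma so that transferrin can bind it. When iron is low, iron regulatory proteins hold back ferritin translation and stabilise transferrin receptor mRNA, so a transcript level does not give the amount of protein. In zebrafish, mutants of tfr1a (chianti), slc11a2 (chardonnay) and slc40a1 (weissherbst) are anaemic.

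The libraries held 14048563 to 15183023 estimated counts. CPM below is the count scaled to the library size, with TMM factors, and log2 fold changes are TCDD minus DMSO ± SE from edgeR's quasi-likelihood test over 20522 genes, called at a Benjamini-Hochberg adjusted p under 0.05. The AHR target cyp1a checked the exposure: it was at 101 to 164 CPM in the DMSO libraries and at 6173 to 9744 CPM in the TCDD libraries. Transcripts of other organs were present throughout. The summed level of 12 liver markers was 28284 to 59446 CPM in DMSO and 28985 to 36237 CPM in TCDD, against 1064 to 1455 and 769 to 1209 CPM for 10 cardiomyocyte markers, none of which was at 0 throughout, so the values describe the sampled material and not heart cells alone. The DMSO 1 library held the highest sum of the 8 in CPM for the liver, erythrocyte, macrophage, cardiomyocyte and intestine lists. Its TMM factor was also the lowest (0.825, against 0.972 to 1.095 in the others), which raises all its CPM values. With the TMM factors undone, the DMSO 1 sum stayed the highest for the liver and erythrocyte lists only. It then lay below DMSO 2 for the macrophage list, TCDD 2 for the cardiomyocyte list and DMSO 4 for the intestine list. In bulk RNA, fewer cells of a type and less RNA per cell cannot be told apart.

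Of the 10 genes, cp rose and fth1b fell, and 8 did not pass the test. Over all genes tested 5.72% were called, 2.99% higher and 2.73% lower. In CPM the groups did not overlap for 5 of the 10 genes, 3 higher in TCDD (cp, tfr1b and ireb2) and 2 lower (fth1a and fth1b), against 14.0% of all genes (7.61% higher and 6.34% lower). On the TPM scale described below, ireb2 overlapped and slc40a1 was higher in TCDD without overlap. The genes were chosen with earlier results of these data known, so these shares are not independent evidence. Their median log2 fold change was -0.10, against 0.00 for all genes. With library size alone it was 0.05, against 0.13 for all genes.

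**Figure D1:**
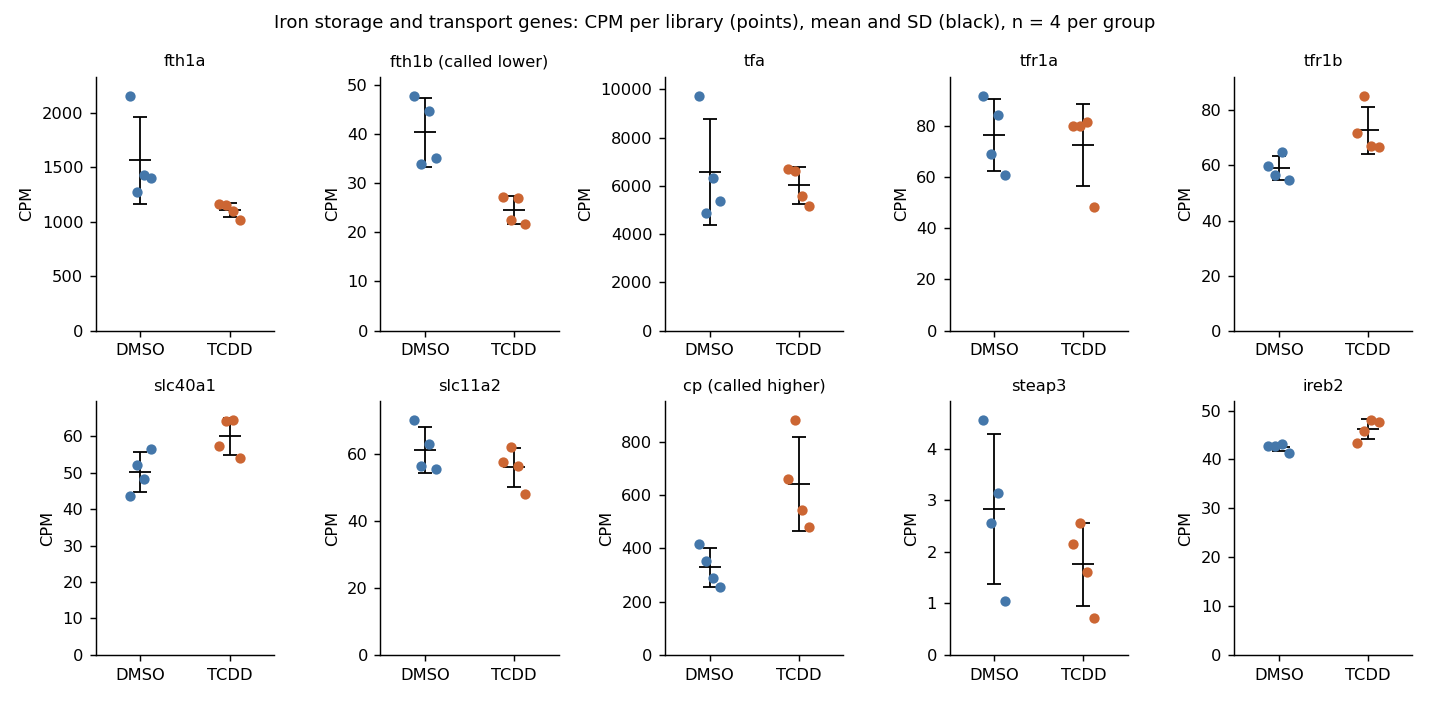
CPM of each of the 10 genes in the 4 DMSO and 4 TCDD libraries (points), with the mean and SD in black and each axis starting at 0. The TCDD libraries of cp lie at 482 to 880 CPM, all above the DMSO libraries, and those of fth1b at 21.7 to 27.1 CPM, all below them.

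Both ferritin heavy chain genes were lower in every TCDD library than in any DMSO library. For fth1b (NCBI gene 447823) the DMSO libraries 1 to 4 held 47.8, 33.8, 44.65 and 35.1 CPM, and the TCDD libraries 1 to 4 held 27.1, 22.6, 26.9 and 21.7 CPM. The groups did not overlap, and DMSO 1 and 3 were the highest. The mean fell from 40.3 ± 6.93 to 24.6 ± 2.84 CPM (SD, n = 4 each), a log2 fold change of -0.71 ± 0.14 (edgeR adjusted p = 0.0131). The call was lost without DMSO 3 (-0.66, edgeR adjusted p = 0.0520), without both DMSO 1 and TCDD 2 (-0.59, 0.0508) and on the TPM scale described below. Its estimated counts had a fraction in all 8 libraries, as arises when reads are shared out among similar transcripts, so its counts are less certain, whereas fth1a and the other 8 genes had exactly whole counts, with no tolerance, in all 8.

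The paralog fth1a (NCBI gene 58108) was far more abundant. The DMSO libraries 1 to 4 held 2156, 1271, 1432 and 1399 CPM, and the TCDD libraries held 1159, 1154, 1097 and 1015 CPM. DMSO 1 stood above the other 3 controls, and the lowest control still exceeded the highest TCDD library. The means were 1564 ± 400.2 and 1106 ± 67.1 CPM (SD, n = 4 each), a log2 fold change of -0.50 ± 0.18 that did not pass (95% interval -0.89 to -0.11, edgeR adjusted p = 0.128). It was -0.31 without DMSO 1, -0.33 with offsets for transcript length (edgeR adjusted p = 0.209; the implied length of 818 bases is short) and -0.16 on the TPM scale (limma adjusted p = 0.250). It was called by DESeq2 (adjusted p = 0.0314) and by edgeR without DMSO 2 (-0.59, adjusted p = 0.0445).

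The 2 ferritin paralogs could not be shown to change unequally. The log2 ratio of fth1b to fth1a in CPM was -5.25 ± 0.21 in DMSO and -5.47 ± 0.14 in TCDD (SD, n = 4 each). The difference of -0.22 had an exact two-sided permutation p = 0.114, where 4 against 4 libraries allow no p below 0.0286. The ranges of the ratio overlapped, from -5.48 to -4.99 in DMSO and from -5.64 to -5.32 in TCDD.

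Transcripts of several cell types were lower in TCDD alongside ferritin. The summed level of 12 erythrocyte markers was 4827 to 9442 CPM in DMSO and 2915 to 4623 CPM in TCDD, without overlap, and 3 of the 11 tested, all globin genes, fell while 0 rose. In the list 1 marker stayed under 1 CPM in all libraries and none was at 0 throughout. Relative to that sum, fth1b was at 0.506 to 0.732% in DMSO and 0.489 to 0.746% in TCDD, with overlap. The same share for fth1a was 22.8 to 26.3% and 25.0 to 34.8%. Macrophages also hold ferritin, and the summed level of 8 macrophage markers was 43.4 to 74.85 CPM in DMSO and 41.1 to 48.0 CPM in TCDD, with overlap. Of the 8, 2 fell (cd74a and lyz) and 0 rose, and 3 had a log2 fold change above 0. Neither cd74a nor lyz is particular to macrophages. Lists of other tissues were lower too. The sum of 8 intestine markers was 2580 to 3500 CPM in DMSO and 1905 to 2219 CPM in TCDD, without overlap, and 2 of the 7 tested fell while 0 rose. Of the 10 cardiomyocyte markers, 9 had a log2 fold change below 0, 2 fell and 0 rose, and the sums overlapped. Over all genes tested, 2.73% were called lower, and 6.34% of single genes were lower in TCDD without overlap. The part of any of these cell types in the ferritin values was not tested.

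Transferrin, the plasma carrier made mainly by liver, did not differ detectably. The gene tfa (NCBI gene 30255) was at 9730, 4883, 6329 and 5374 CPM in the DMSO libraries 1 to 4 and at 6707, 6633, 5561 and 5185 CPM in the TCDD libraries. DMSO 1 was the highest of the 8, and the other 3 controls overlapped with TCDD. The log2 fold change was -0.13 ± 0.23 (95% interval -0.63 to 0.38, edgeR adjusted p = 0.792) and turned to 0.12 without DMSO 1. As a share of the liver sum, tfa was at 14.8 to 17.3% in DMSO and 15.45 to 18.5% in TCDD.

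The receptors that take up transferrin, tfr1a and tfr1b, were not called. The tfr1b gene (NCBI gene 494478) was at 59.9, 56.5, 65.1 and 54.9 CPM in DMSO and at 71.8, 85.3, 67.2 and 66.7 CPM in TCDD. Every TCDD library lay above every DMSO library, by little for TCDD 3 and 4. The log2 fold change of 0.30 ± 0.11 did not pass (95% interval 0.06 to 0.54, edgeR adjusted p = 0.135).

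The erythroid receptor gene tfr1a (NCBI gene 494477) was at 91.9, 69.3, 84.35 and 60.8 CPM in DMSO and at 79.95, 80.2, 81.8 and 48.4 CPM in TCDD. The groups overlapped, and TCDD 4 was the lowest of all 8. The log2 fold change was -0.08 ± 0.18 (95% interval -0.47 to 0.32, edgeR adjusted p = 0.846). Relative to the erythrocyte sum, a share chosen after the data were seen, tfr1a was at 0.973 to 1.435% in DMSO and at 1.66 to 2.195% in TCDD, without overlap. The sum itself was lower in TCDD (log2 ratio of means -0.77). Whether tfr1a per erythrocyte differed was not tested. The log2 ratio of tfr1b to tfr1a in CPM was -0.36 ± 0.20 in DMSO and 0.03 ± 0.33 in TCDD (SD, n = 4 each). The difference of 0.38 had an exact two-sided permutation p = 0.0857. Both paralog ratios had an adjusted p of 0.114 over the 2 exact permutation tests.

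Endosomal reduction and transfer of iron to the cytosol showed no call. The transporter gene slc11a2 (NCBI gene 678623) was at 70.1, 56.3, 63.0 and 55.45 CPM in DMSO and at 57.5, 62.2, 56.3 and 48.1 CPM in TCDD. The groups overlapped, and the log2 fold change was -0.13 ± 0.11 (95% interval -0.38 to 0.12, edgeR adjusted p = 0.560). The reductase gene steap3 (NCBI gene 100320152) was scarce, with 11 to 57 counts per library. Its levels were 4.55, 2.56, 3.145 and 1.05 CPM in DMSO and 2.16, 2.56, 1.60 and 0.708 CPM in TCDD. They overlapped, and the log2 fold change of -0.68 ± 0.43 had the widest interval of the 10 genes (-1.62 to 0.27, edgeR adjusted p = 0.386), which includes both no change and a 2-fold lower level. With 1 library left out it ran from -0.36 without DMSO 1 to -0.96 without DMSO 4, and it was -0.41 without TCDD 4.

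Ceruloplasmin, the copper-containing ferroxidase of plasma, had the largest change of the 10. The gene cp (NCBI gene 84702) was at 417, 353, 290.3 and 254 CPM in the DMSO libraries 1 to 4 and at 660, 880, 543 and 482 CPM in the TCDD libraries. Every TCDD library exceeded every DMSO library, and TCDD 2 was the highest. The mean rose 1.95-fold, from 328 ± 71.8 to 641 ± 176 CPM (SD, n = 4 each), a log2 fold change of 0.97 ± 0.21 (95% interval 0.51 to 1.42, edgeR adjusted p = 0.0205). Among all genes tested, 97.2% had a smaller absolute log2 fold change. The call was lost without DMSO 3 (edgeR adjusted p = 0.0829), DMSO 4 (0.0571), TCDD 1 (0.0519) or TCDD 2 (0.0515), with log2 fold changes of 0.77 to 0.96 in those fits. It held without DMSO 1 (1.101, 0.0113) and without both DMSO 1 and TCDD 2 (0.91, 0.0116).

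Liver is the main source of plasma ceruloplasmin. Of the 12 liver markers, 0 were called higher and 0 lower by edgeR, and their median log2 fold change was -0.14. In edgeR 6 of the 12 had an unadjusted p under 0.05, against 4508 of the 20522 genes tested. DESeq2 called 4 of the 12 (2 higher, 2 lower), against 2007 of the 20522. The 3 markers above 0 were the fibrinogen genes fga (0.35 ± 0.13), fgb (0.37 ± 0.15) and fgg (0.41 ± 0.13, edgeR adjusted p = 0.0834), which encode the clotting protein of plasma, and DESeq2 called fga and fgg. The other 9 were below 0. The lowest were the apolipoprotein gene apoa2 (-0.89 ± 0.33; edgeR adjusted p = 0.136, DESeq2 0.0315), the liver fatty acid binding protein gene fabp10a (-0.87 ± 0.32; 0.141 and 0.209) and the fetuin gene ahsg1 (-0.83 ± 0.25; 0.0862 and 0.0195). As a share of the liver sum, cp was at 0.697 to 1.25% in DMSO and at 1.51 to 2.45% in TCDD, without overlap. The log2 difference of that share was 1.15, against 0.97 for cp in CPM. The liver sum mixes markers above and below 0, and whether cp per liver cell differed was not tested.

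**Figure D2:**
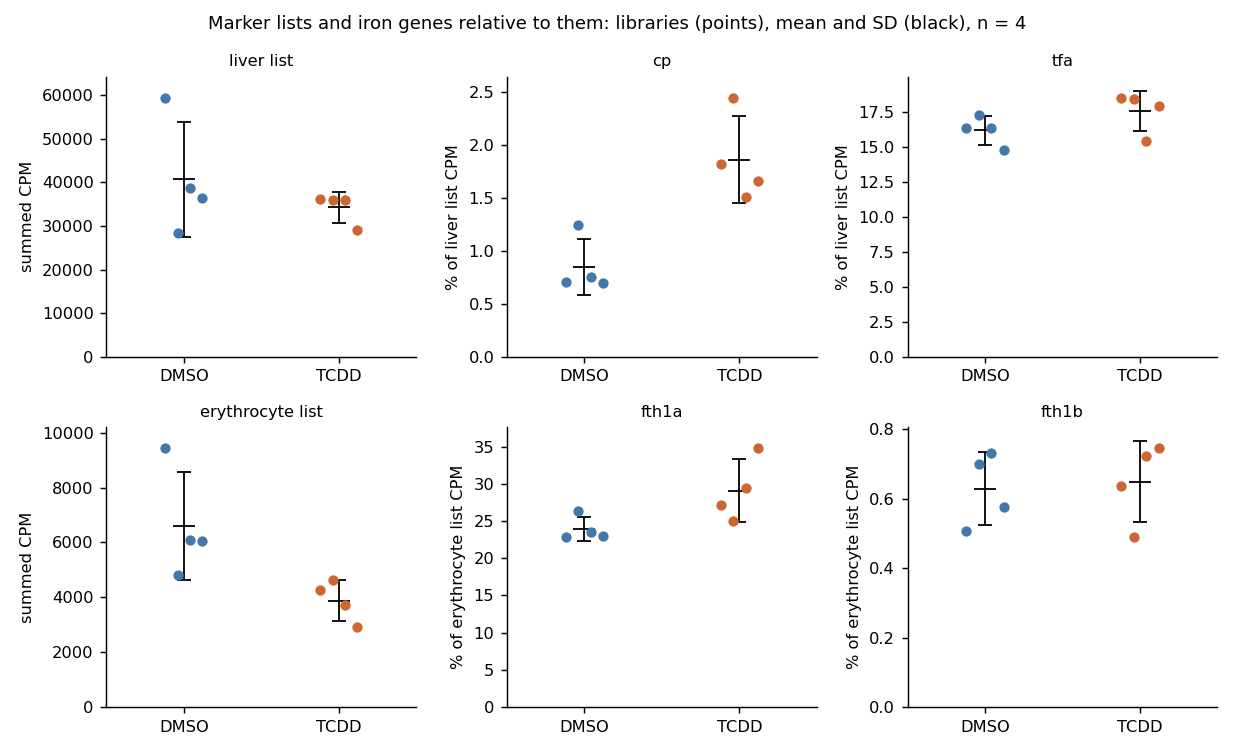
Summed CPM of the liver and erythrocyte marker lists, and cp, tfa, fth1a and fth1b as a percent of those sums, per library (points) with mean and SD (black, n = 4). The share of cp does not overlap between the groups (0.697 to 1.25% and 1.51 to 2.45%), whereas the share of fth1b does (0.506 to 0.732% and 0.489 to 0.746%).

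Ferroportin, the cellular iron exporter, was higher on average in TCDD without passing the test. The gene slc40a1 (NCBI gene 58153) was at 43.7, 52.2, 48.15 and 56.4 CPM in DMSO and at 57.3, 64.1, 64.4 and 54.1 CPM in TCDD. In CPM, TCDD 4 alone lay below the highest control. In TPM the groups did not overlap (9.22 to 17.85 in DMSO and 18.8 to 22.1 in TCDD). The log2 fold change from edgeR was 0.26 ± 0.11 (95% interval 0.02 to 0.50, edgeR adjusted p = 0.195). With limma on log2(TPM + 0.5) it was 0.56, or 0.29 above the median of all genes (limma adjusted p = 0.0757).

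The iron regulatory protein gene ireb2 (NCBI gene 652982) had the smallest standard error of the 10 on the log2 scale. It was at 42.7, 42.7, 43.2 and 41.4 CPM in DMSO and at 43.4, 45.9, 48.0 and 47.6 CPM in TCDD. The groups did not overlap in CPM, but the lowest TCDD library was 43.4 and the highest control 43.2 CPM. In TPM they overlapped (8.96 to 14.5 in DMSO and 14.1 to 17.0 in TCDD). The log2 fold change was 0.12 ± 0.09 (95% interval -0.07 to 0.31, edgeR adjusted p = 0.453).

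**Figure D3:**
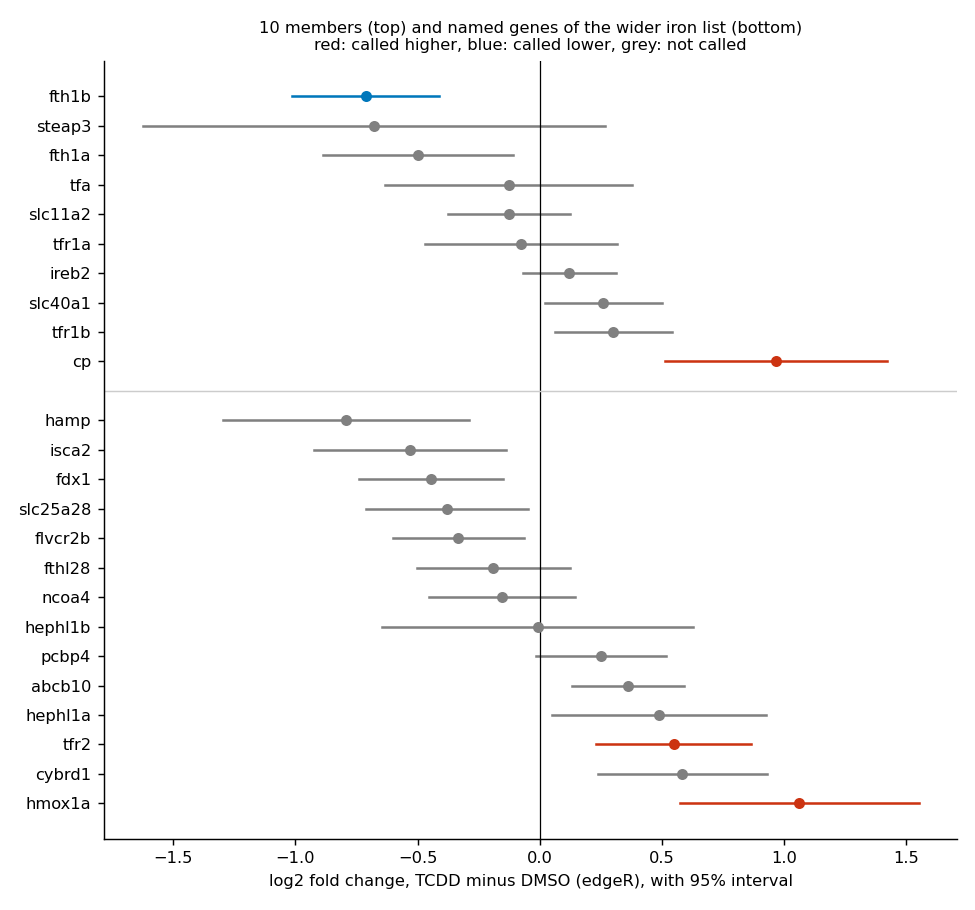
Log2 fold changes, TCDD minus DMSO, with 95% intervals for the 10 genes (top) and for the named genes of the wider iron list (bottom). Called genes are red when higher (cp, tfr2, hmox1a) and blue when lower (fth1b), and the others are grey.

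Per transcript length, the 10 genes covered a wide range of levels. On the TPM scale, which the authors computed, the order of mean levels over the 8 libraries was tfa (3364 TPM), fth1a (1708), cp (174), slc11a2 (36.7), fth1b (28.8), tfr1b (24.9), slc40a1 (17.2), ireb2 (13.7), tfr1a (10.2) and steap3 (1.12 TPM). In DMSO the ranges of slc11a2 and fth1b overlapped, as did those of tfr1b and slc40a1, slc40a1 and ireb2, and ireb2 and tfr1a, so the order of these neighbours is not separated by the spread. In TCDD no 2 neighbours in that order overlapped. In TCDD fth1b (22.3 to 27.6 TPM) lay below tfr1b (28.0 to 34.2 TPM) in level, while in DMSO fth1b (29.0 to 37.3 TPM) lay above it (15.3 to 23.4 TPM). The order of tfr1a and tfr1b depends on the scale, as their implied lengths were 7847 and 2895 bases. In CPM the means of tfr1a and tfr1b were 76.6 and 59.1 in DMSO and 72.6 and 72.8 in TCDD.

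**Figure D4:**
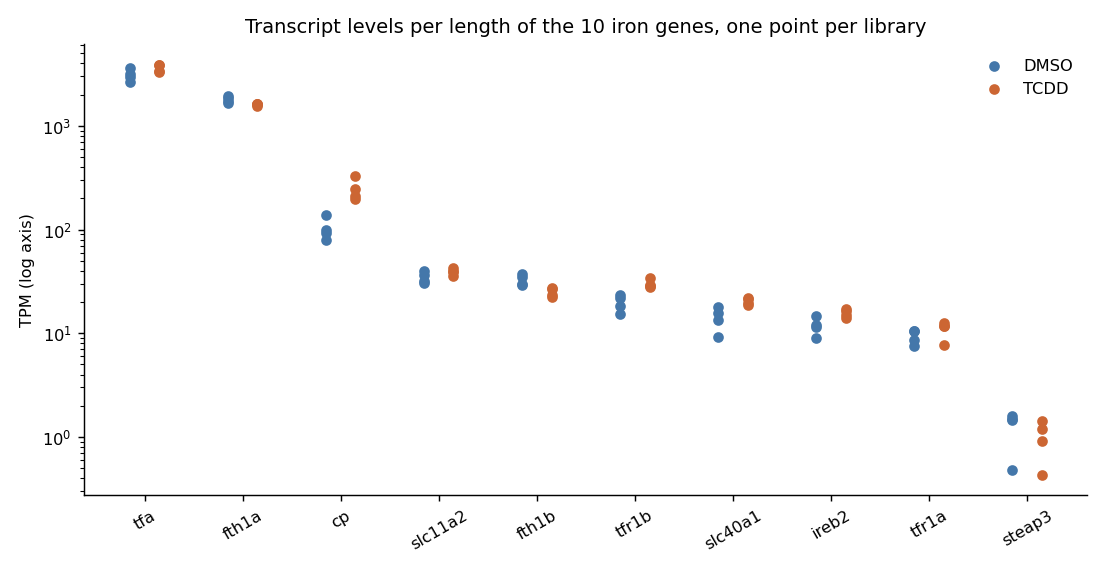
TPM (log axis) of each of the 10 genes in every DMSO and TCDD library, in order of mean level. The carrier tfa and the ferritin gene fth1a lie at 1568 TPM or more in all 8 libraries, and steap3 lies between 0.430 and 1.61 TPM.

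The scaling moved the values of all 10 genes. The median log2 fold change over all genes tested moved from 0.00 to 0.13 when the library size served without TMM factors, and to 0.26 with limma on log2(TPM + 0.5). On that TPM scale the value of cp was 1.26 (0.998 above the median of all genes, limma adjusted p = 0.0014), that of tfr1b 0.60 (0.33 above the median, 0.0334), that of fth1a -0.16 (-0.42 relative to the median, 0.250) and that of fth1b -0.38 (-0.65 relative to the median, 0.0988). Among the 10 genes cp had the highest and fth1b the lowest value on each of these 3 scales. The values of tfa, tfr1a and slc11a2 turned above 0 with library size alone and on the TPM scale. Relative to the median of all genes these 3 stayed below 0. With library size alone tfa was at -0.095, tfr1a at -0.070 and slc11a2 at -0.120 relative to it. On the TPM scale they were at -0.034, -0.051 and -0.080.

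**Figure D5:**
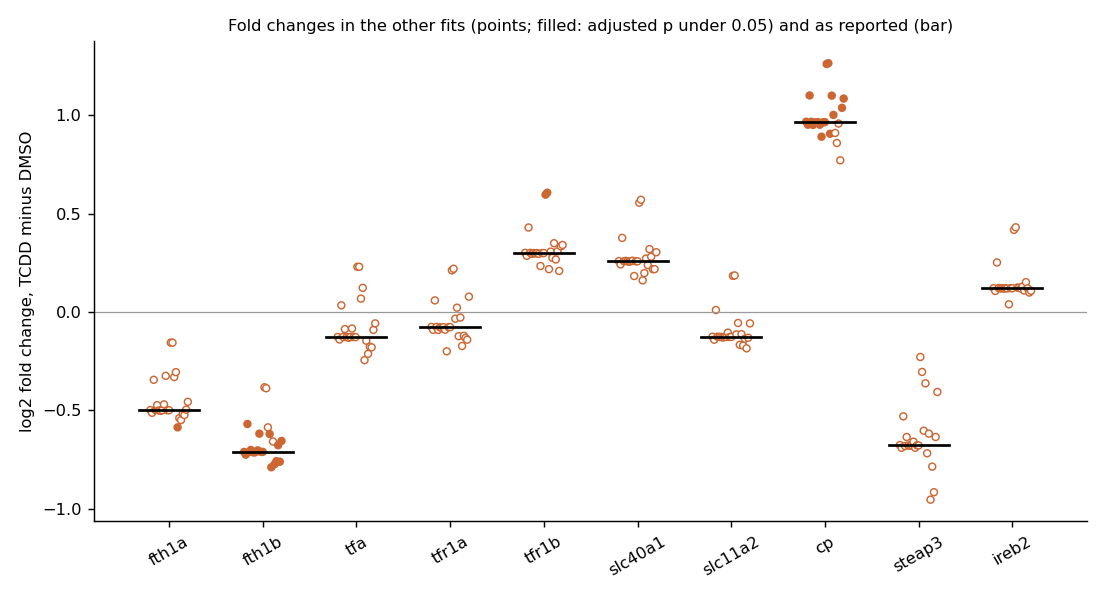
Log2 fold changes, TCDD minus DMSO, of the 10 genes as reported (bar) and in each other fit (points, filled where the adjusted p was under 0.05); values relative to marker sums, where fth1a is 0.27 and fth1b 0.04 against the erythrocyte sum, are not plotted. In the plotted fits cp stays between 0.77 and 1.27 and fth1b between -0.79 and -0.38, whereas tfa, tfr1a and slc11a2 lie on both sides of 0. The points are not set against the median of all genes, which was 0.13 with library size alone and 0.26 with log2(TPM + 0.5).

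Of 75 other genes of iron handling, 71 were matched and 69 tested. Of these, 2 rose, 0 fell and 67 did not pass, 2.90% called against 5.72% over all genes. Of the 69, the groups did not overlap for 4 higher in TCDD (tfr2, cybrd1, abcb10 and hmox1a) and 3 lower (hamp, ciao2b and flvcr2b). Over all genes tested, 14.0% did not overlap, 7.61% higher and 6.34% lower. The median log2 fold change of the 69 was -0.06, against 0.00 for all genes, and 0.09 with library size alone, against 0.13. DESeq2 called 6 of them (4 higher, 2 lower), against 2007 of all 20522 genes tested. Without DMSO 2 edgeR also called 6 (1 higher, 5 lower), against 1854 of 20724 genes (682 higher, 1172 lower). Among the genes of uptake, the second transferrin receptor gene tfr2, known in mammals as a sensor of transferrin iron in liver, rose from 10.2 ± 1.34 to 14.95 ± 2.12 CPM (SD, n = 4 each; 0.55 ± 0.14, edgeR adjusted p = 0.0480). The groups did not overlap (8.59 to 11.5 and 12.35 to 17.5 CPM). As a share of the liver sum, chosen after the data were seen, tfr2 was at 0.0187 to 0.0343% in DMSO and 0.0404 to 0.0485% in TCDD, without overlap. Whether tfr2 per liver cell differed was not tested. Its call sat at the threshold and was lost in 10 of 23 other fits, among them without both DMSO 1 and TCDD 2 (0.124). The reductase gene cybrd1 did not overlap either (3.57 to 5.10 and 5.67 to 6.88 CPM) but missed the threshold (0.58 ± 0.16, edgeR adjusted p = 0.0537), and it was called in 6 of 23 other fits.

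Haem handling, the release of iron from haem included, held the other call. The haem oxygenase gene hmox1a was at 21.5, 20.1, 16.6 and 16.1 CPM in DMSO and at 28.6, 32.1, 61.0 and 33.1 CPM in TCDD. The groups did not overlap, and TCDD 3 stood above the other 3. It rose 2.09-fold (1.06 ± 0.22, edgeR adjusted p = 0.0189), a call lost without DMSO 3 (0.0673), without DMSO 4 (0.0508) and without both DMSO 1 and TCDD 2 (0.0754). The haem transporter family gene flvcr2b was lower in every TCDD library (9.56 to 10.5 CPM) than in any DMSO library (11.5 to 14.8 CPM). It did not pass (-0.33 ± 0.12, edgeR adjusted p = 0.139), and 1 of 13 genes in the group was called. The gene hpx, which encodes the plasma haem carrier hemopexin, had overlapping groups (124 to 467 and 70.3 to 239 CPM, highest in DMSO 1 and TCDD 1) and did not pass (-0.76 ± 0.59, edgeR adjusted p = 0.503), but it was called lower with the replicate number as a block (-0.70, edgeR adjusted p = 0.0216).

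Among the genes of iron control, hamp, which encodes the hormone hepcidin that removes ferroportin from the cell surface, was lower in every TCDD library (1.48 to 2.56 CPM) than in any DMSO library (2.83 to 4.19 CPM). It had 23 to 60 counts per library, and its log2 fold change of -0.79 ± 0.23 did not pass (edgeR adjusted p = 0.0675; 0.0407 with DESeq2). For this short transcript (implied length 427 bases) it was -0.49 with length offsets (edgeR adjusted p = 0.261) and -0.46 on the TPM scale (limma adjusted p = 0.149). As a share of the liver sum, hamp overlapped between the groups (0.0052 to 0.0115% and 0.0043 to 0.0071%). The RNA-binding gene pcbp4 did not pass (0.25 ± 0.12, edgeR adjusted p = 0.254). The cytosolic aconitase gene aco1, whose protein doubles as an iron regulatory protein, was at 82.5 ± 10.3 and 83.0 ± 9.45 CPM (SD, n = 4 each). None of the 10 control genes was called by edgeR, with 1 at an unadjusted p under 0.05 and 1, hamp, called by DESeq2. Of all 20522 genes tested, 4508 had an unadjusted p under 0.05 in edgeR, and DESeq2 called 2007.

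No other storage gene was called. Of 6 tested, 0 were called by edgeR and 0 by DESeq2, with log2 fold changes of 3 above and 3 below 0. In edgeR 0 had an unadjusted p under 0.05, against 4508 of the 20522 genes tested. The most abundant, fthl27, a ferritin heavy chain-like gene, was at 370 ± 38.8 and 383 ± 37.8 CPM (SD, n = 4 each; 0.05 ± 0.13). The values were -0.19 ± 0.14 for fthl28 and -0.15 ± 0.14 for ncoa4, the receptor that delivers ferritin to the lysosome, both with groups that overlapped. Some counts of fthl28, fthl29, fthl30 and fthl31 were not whole (lowest 537.9, 243.4, 44.94 and 268.1 per library). As for fth1b, these counts are less certain. The difference between the other storage genes and fth1b was not tested.

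The genes of iron-sulphur cluster assembly, a list that spans mitochondrial and cytosolic assembly, and those of mitochondrial iron did not pass either. In the iron-sulphur cluster group 0 of 24 genes were called by edgeR and 1, fdx1, by DESeq2. In edgeR 6 had an unadjusted p under 0.05, against 4508 of the 20522 genes tested. Of the 24, 18 had a log2 fold change below 0, against 50.0% of all genes (10259 of 20522). Without DMSO 2 edgeR called 5 of the 24, all lower (fdx1, fdx2, glrx5, isca2 and iscua, log2 fold changes of -0.65 to -0.44), and none in any other fit with 1 library left out. Lower calls over all genes also increased in that fit, to 1172 of 20724 from 560 of 20522 with all 8 libraries. The higher calls over all genes were 682 and 614. The median of the 24 genes was -0.20, against 0.00 for all genes, and -0.06 with library size alone, against 0.13. It was 0.11 on the TPM scale, against 0.26, and -0.11 after offsets for transcript length, against 0.00. These genes are short (median implied length 1087 bases against 1994 for all genes tested). The ferredoxin gene fdx1 was at 83.3 ± 13.9 and 61.2 ± 6.38 CPM (SD, n = 4 each; -0.44 ± 0.13, edgeR adjusted p = 0.0775), and isca2 at 13.6 ± 3.33 and 9.43 ± 1.24 CPM (-0.53 ± 0.18, 0.113). For mitochondrial iron import, abcb10, a mitochondrial transporter, was higher in every TCDD library (20.9 to 22.7 CPM against 15.2 to 18.6 CPM; 0.36 ± 0.11, edgeR adjusted p = 0.0691), and the importer gene slc25a28 had overlapping groups (-0.38 ± 0.15, 0.170). Its erythroid paralog slc25a37 was below the filter, with 1 to 9 counts per library. In the separate export group, the ferroxidase genes hephl1a (0.49 ± 0.20, edgeR adjusted p = 0.181) and hephl1b (-0.01 ± 0.29, 0.990) did not pass.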

How the data were processed

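The authors deposited for each library an expected count (estimated reads per gene, not normalized; 11.43 to 11.98% are not exactly whole, with no tolerance), a TPM and an FPKM, per the file headers. Bowtie2 and GRCz11 are named in the submitters' processing notes, with no quantifier or annotation stated in the labels. After rounding, the expected counts entered a robust, two-sided quasi-likelihood test of treatment alone (edgeR 4.0.16, R 4.3.3) with TMM factors and the filterByExpr filter. SE is the fold change over the square root of F. CPM used TMM-scaled library sizes. Deposited TPM served for levels, and deposited FPKM with the count for an implied transcript length, not checked against an annotation. Counts below 3 (0.198 to 0.214 CPM) were taken as undetected, and floors cover counting error only. No genome of the files' build was used.

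The members and lists were chosen with earlier results of these data known. All members, called genes of the wider list and the 2 with the smallest p in a group with fewer calls were named. Genes named beside these (aco1, fthl27, slc25a37, cd74a, lyz, hpx, fdx2, glrx5, iscua, ciao2b and the liver markers) were chosen after their values were seen. Of the 75 listed wider genes, 67 matched by symbol, 4 by synonym in the RefSeq gene table of the GRCz12tu assembly, 3 not at all, and 1 symbol was shared by 2 rows and left out. The marker lists held 55 genes matched by symbol and 2 by synonym. A rule that would add genes by description could not be applied without descriptions. The labels do not state that replicate numbers pair samples, so numbers were not taken as pairs. Deviations from the group mean correlated at -0.293 to 0.277 for same-numbered libraries, against -0.423 to 0.520 for the other pairs. These correlations were centred within groups of 4 libraries and cannot exclude pairing. The highest correlation, 0.520, was between DMSO 1 and TCDD 2, and a fit without both was among the alternatives.

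The test was also run on simulated counts that gave every gene the same dispersion and did not copy the TMM factors of these libraries. That run cannot speak for the calls reported here. Alternatives were DESeq2 1.42.0, limma 3.58.1 (voom, and log2(TPM + 0.5 or 0.1)), other scaling factors and filters, no robust estimation, length offsets (span 0.3), the replicate block, abundant or liver and erythrocyte genes left out, and libraries left out. Shares of marker sums were chosen after the data were seen. Tables were made in Python 3.11.15 with pandas 2.3.3 and numpy 2.4.6, and figures with matplotlib 3.10.9.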

Additional observations from a re-analysis of the deposited data

Results flagged for a closer look

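In 62 groups of 4 libraries examined (members, named genes of the wider list, marker sums and paralog ratios), 3 had a library whose gap to its nearest neighbour exceeded Dixon's 95% critical value, set against the group's range. Chance flags about 1 group in 20, which is about as many as were found. The tfr1a level of TCDD 4 (48.4 CPM) lay below the other TCDD libraries (79.95 to 81.8 CPM), and without it the log2 fold change of tfr1a was 0.08 in place of -0.08. The hmox1a level of TCDD 3 (61.0 CPM) lay above the other TCDD libraries (28.6 to 33.1 CPM). The liver sum of TCDD 4 (28985 CPM) lay below the other TCDD libraries (35972 to 36237 CPM).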

How the results depend on the processing

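Of the 10 genes, 2 were called, and 0 to 3 in fits that left out 1 library (0 without DMSO 3, 1 without DMSO 4, TCDD 1 or TCDD 2), with 1 call without both DMSO 1 and TCDD 2. Of the wider list, 2 were called, and 0 to 6 with 1 library left out (6 without DMSO 2, 1 higher and 5 lower, all 5 in the iron-sulphur group). The count was 4 with library size alone, 6 with DESeq2, 1 with limma-voom, with no filter or without robust estimation, 5 with limma on log2(TPM + 0.5) or log2(TPM + 0.1), and 0 without both DMSO 1 and TCDD 2. Of all genes, 1174 were called (614 higher, 560 lower), and 523 to 1854 with 1 library left out. The 1854 were called without DMSO 2, 682 higher and 1172 lower. DESeq2 called 2007, and 616 were called without both DMSO 1 and TCDD 2. The higher calls were 937 of 1309 with library size alone and 1382 of 1568 with limma on log2(TPM + 0.5). Fits with fewer libraries have less power, so a lost call does not by itself show reliance on a library. Where a setting moved a value otherwise, the cause was not tested.

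The replicate block called the same 2 members (cp 0.95, fth1b -0.70) and 1347 genes in all, and in the wider list hpx (lower) besides the 2 reported. Within numbers the paralog ratios differed by -0.223 (exact two-sided sign-flip p = 0.250; 1 of 4 differences above 0) and 0.384 (p = 0.125; 4 of 4 above 0), but 4 pairs allow no p below 0.125, so this test could not pass. Over 11 alternatives, this one included, the ratio of fth1b to fth1a ran from -0.301 to -0.137 and that of tfr1b to tfr1a from 0.241 to 0.487, none with a p under the threshold.

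In the other fits signs turned for genes that were not called. With library size alone tfa was 0.034, tfr1a 0.059, slc11a2 0.010 and hephl1b 0.108, all below the median of 0.129 over all genes. With log2(TPM + 0.5) tfa was 0.230, tfr1a 0.212, slc11a2 0.184, fthl28 0.135, ncoa4 0.167 and hephl1b 0.152, all below the median of 0.264. With log2(TPM + 0.1) they were 0.230, 0.220, 0.186, 0.136, 0.168 and 0.302, all below the median of 0.306. Without both DMSO 1 and TCDD 2 tfa was 0.068 and hephl1b 0.042, with length offsets fthl28 was 0.039, and hephl1b was 0.046 with limma-voom and 0.029 with the replicate block. With 1 library left out the values ran from -0.245 to 0.123 for tfa, -0.173 to 0.078 for tfr1a and -0.180 to 0.289 for hephl1b. Relative to the erythrocyte sum, chosen after the data were seen, fth1a was 0.274 and the called gene fth1b turned too, to 0.041 on the log2 scale. That sum was itself lower in TCDD (log2 ratio of means -0.77). A gene that fell by less than the sum lies above 0 relative to it, so this turn does not test the fth1b call. With the 10 most abundant genes left out tfa had no value. Among the genes named, depth limits steap3 (11 to 57 counts per library), hamp (23 to 60), hephl1b (14 to 36) and slc25a37 (1 to 9) most.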
